A study of Mus musculus with 2 samples.

Results

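The carboxylesterases described here are the Ces1, Ces2, Ces3 and Ces5 genes of mouse liver, measured after a diet with diosgenin. The 10 listed genes were selected on family membership with their diosgenin over control ratios on these arrays already known, so every value below describes these arrays and none is a test. Of the 10 genes, 8 had at least 1 probe set annotated to them alone, among 18194 such genes on the array. They were Ces1d, Ces1e, Ces1f, Ces1g, Ces5a, Ces2a, Ces2b and Ces2e, and 12 probe sets read them. Ces2c had none in the annotation used here, and Ces3a shared its probe set with Ces3b. All 8 identifiers matched the same symbols in RefSeq's gene table for GRCm38.p6, a mouse assembly.

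The question addressed was how diosgenin, a steroidal sapogenin of plants such as yam and fenugreek, alters transcript levels in liver. One Affymetrix array carried liver RNA pooled from 3 ICR mice, an outbred stock, that ate the CRF-1 basal diet with 500 ppm diosgenin for 4 weeks from the age of 9 weeks. The other array carried liver RNA pooled from 3 ICR mice of the same age, 13 weeks at collection, that ate CRF-1 alone. With 1 array per diet there is no p-value, standard error or interval, the spread between mice cannot be had from a pool, and the number of arrays limits the precision. Mice were housed 3 to a cage, so a cage and a diet may coincide, and their sex was not given in the labels.

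Both arrays had been scaled alike, with a trimmed mean signal of 96.9 each. Medians were 17.0 on the diosgenin array and 17.1 on the control array. Signals are linear intensities, and those under a floor of 10.7 were set to the floor before log2 ratios, diosgenin over control, were taken. Each gene took the value of its brightest probe set by mean signal, and genes were kept where that mean reached a filter of 28.4, which left 9732. All 8 carboxylesterases passed this filter, Ces5a by its signal on the diosgenin array. The yardstick for a single ratio was the standard deviation of log2 ratios between probe sets of the same gene, 0.28 over 4079 genes, which holds no spread between mice.

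Carboxylesterases are serine hydrolases that cleave esters, amides and thioesters. Most are held in the lumen of the endoplasmic reticulum of hepatocytes, where they activate or clear ester drugs and also hydrolyse neutral lipids and cholesteryl esters. Mice have many more of these genes than humans, in tandem arrays that arose by duplication, so that sequences of close relatives are similar and an array probe can bind more than 1 of them. Suffixes of Affymetrix probe sets mark this: _s_at and _x_at probe sets can bind transcripts of several genes, and _a_at probe sets read several transcripts of 1 gene.

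In the GRCm38.p6 gene table all carboxylesterase genes lay on chromosome 8, in 2 clusters with no other protein-coding gene inside either. The first ran from Ces1a to Ces5a with 9 coding genes, and the second from Ces2a to Ces4a with 10. Promoters of 6 of the 10 listed genes were in the RefSeq promoter table: Ces1e, Ces1g, Ces5a, Ces2a, Ces2c and Ces2e. The 250 bases before the start are shown for the highest ratio of all (Ces5a), for the next highest in the first cluster (Ces1g), for the gene of the second that lay highest among genes of like brightness (Ces2a) and, for contrast, for a gene of each cluster with a small ratio (Ces1e and Ces2e). Capitals mark matches, on either strand, to TTATGNAA, the D-box read by PAR bZIP factors, and to CAAAGTNC, a core of sites for the hepatocyte receptor HNF4. Sequences are from RefSeq, build GRCm38.p6, printed 5′ to 3′ on the strand of the gene.
Ces5a, chr8:93535841-93536090, minus strand: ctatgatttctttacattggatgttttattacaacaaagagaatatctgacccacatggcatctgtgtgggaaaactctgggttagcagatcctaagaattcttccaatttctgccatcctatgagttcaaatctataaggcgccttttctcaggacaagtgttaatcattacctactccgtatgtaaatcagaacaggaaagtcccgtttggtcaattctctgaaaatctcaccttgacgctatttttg
Ces1g, chr8:93337210-93337459, minus strand: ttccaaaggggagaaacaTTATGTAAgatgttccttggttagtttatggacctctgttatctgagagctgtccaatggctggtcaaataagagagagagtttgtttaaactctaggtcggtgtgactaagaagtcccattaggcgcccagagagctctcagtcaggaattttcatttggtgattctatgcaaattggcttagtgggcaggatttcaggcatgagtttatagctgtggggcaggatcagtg
Ces1e, chr8:93229620-93229869, minus strand: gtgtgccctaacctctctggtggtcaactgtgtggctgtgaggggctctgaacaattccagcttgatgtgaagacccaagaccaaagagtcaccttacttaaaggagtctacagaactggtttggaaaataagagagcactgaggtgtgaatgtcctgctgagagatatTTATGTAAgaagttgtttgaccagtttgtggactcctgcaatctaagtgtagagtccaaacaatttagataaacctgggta
Ces2a, chr8:104733753-104734002, plus strand: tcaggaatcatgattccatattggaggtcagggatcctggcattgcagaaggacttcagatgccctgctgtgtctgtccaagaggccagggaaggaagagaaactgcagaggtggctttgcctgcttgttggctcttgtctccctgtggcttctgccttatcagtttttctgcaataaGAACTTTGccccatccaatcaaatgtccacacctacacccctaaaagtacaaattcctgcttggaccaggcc
Ces2e, chr8:104926010-104926259, plus strand: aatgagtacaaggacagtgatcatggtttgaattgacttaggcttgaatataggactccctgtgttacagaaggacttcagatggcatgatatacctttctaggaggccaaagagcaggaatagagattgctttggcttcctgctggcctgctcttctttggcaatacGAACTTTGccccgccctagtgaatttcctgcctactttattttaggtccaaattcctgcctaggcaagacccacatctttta

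The D-box letters stood in the Ces1g window, from base -232 to base -225 counted back from the start, and in the Ces1e window, from -81 to -74. They were found in 3.07% of all 32851 promoter windows of this length. The HNF4 core stood on the opposite strand in the windows of Ces2a, from -72 to -65, and of Ces2e, from -82 to -75, and in 3.4% of all windows. Both motifs overlap no other motif searched here. Each motif thus stood in 2 of the 6 carboxylesterase windows, in 1 gene with a larger ratio and 1 with a smaller ratio of the same cluster. No window of the 6 held a DR3, DR4 or ER6 element, pairs of AGNTCA at spacings used by the xenobiotic receptors PXR and CAR, which occurred in 0.0517%, 0.103% and 0.0304% of all windows. A match to these letters is a description and not evidence of binding.

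Of the 8 carboxylesterases, 7 had a higher and 1 a lower signal on the diosgenin array, where 49.0% of all genes above the filter were higher. The signal was at least 1.5-fold higher for 3 of them, Ces5a, Ces1g and Ces2b, against 2.84% of all genes above the filter. None was at least 1.5-fold lower, against 3.61% of all genes. The median log2 ratio of the 8 was 0.35, and that of all genes above the filter was -0.01. It was 0.17 with the filter at the 75th percentile of signals, 0.19 without Ces5a, also 0.19 with Ces3a read by the probe set it shares with Ces3b, and 0.57 with the median of the probe sets above the filter. Because the genes were listed with these ratios known, nothing is read from the comparison with the background. In RNA from whole liver, a different number of cells of a type and a different amount of RNA per cell cannot be told apart.

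**Figure D1:**
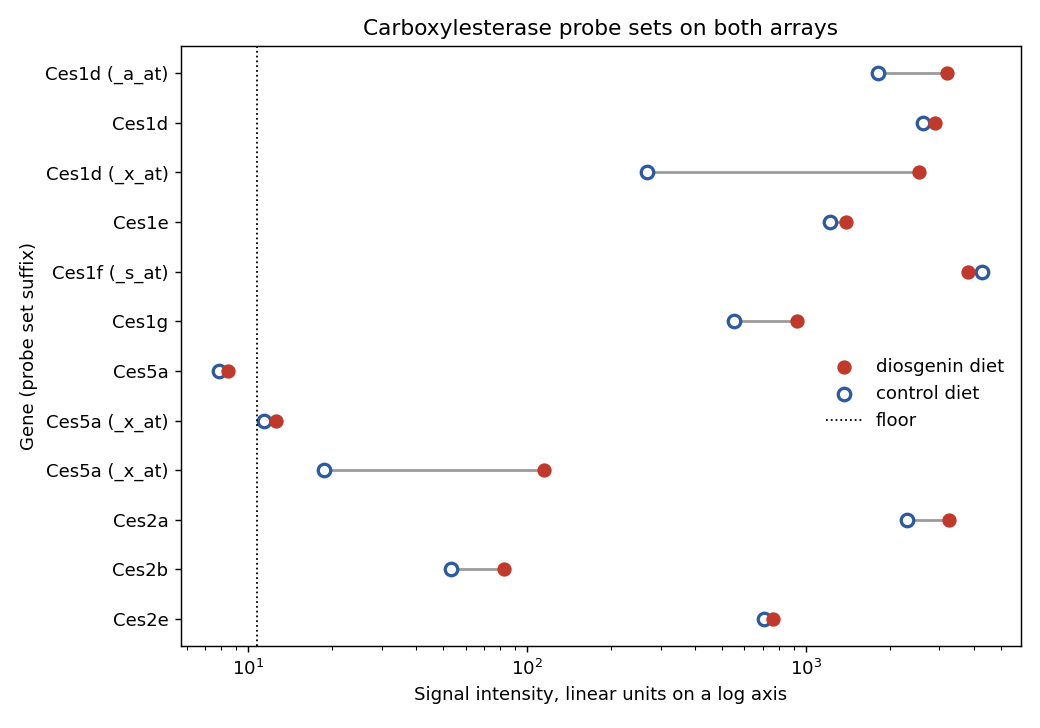
Signal of each of the 12 carboxylesterase probe sets on the diosgenin array (filled red points) and the control array (open blue points), in linear intensity on a log axis, with the floor of 10.7 as a dotted line. Most pairs lie close together, whereas the _x_at probe set of Ces1d (2526 and 268) and 1 of the _x_at probe sets of Ces5a (115 and 18.7) lie far apart.

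In the first cluster, the 5 measured genes spread widely. Ces5a, known as cauxin, a protein secreted in large amounts into cat urine, had signals of 115 on the diosgenin array and 18.7 on the control array by probe set 1459865_x_at. This was 6.14-fold higher, a log2 ratio of 2.62, and the highest of all 9732 genes above the filter. Another Ces5a probe set, 1458331_x_at, gave 12.6 on the diosgenin array and 11.4 on the control array. The third, 1432406_at, the only one without a suffix, gave 8.46 and 7.86, both under the floor, and so has no ratio. The high Ces5a ratio therefore came from 1 of 3 probe sets, one that can bind relatives, and the value is uncertain for this gene. Its control signal was close to the floor and under the filter of 28.4, and whether this signal was called present is not known here, since detection calls were not given in the sources used here. The fold and the rank are therefore those of a ratio to a weak signal. A floor at the 60th percentile of signals put Ces5a at 2.01, and the median of its 3 probe sets, with the probe set under the floor counted as no difference, was 0.15.

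Ces1g, a lipid-handling esterase whose loss in mice raises liver and plasma triglyceride, had signals of 922 on the diosgenin array and 551 on the control array. It was 1.67-fold higher, with a log2 ratio of 0.74, and 0.658% of the genes in its brightness group had a ratio as high or higher. Its only probe set carries no suffix. Genes were divided by mean signal into 4 brightness groups of 2433. In the brightest of these the central 95% of log2 ratios ran from -0.47 to 0.44, and Ces1g lay outside this range.

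Ces1d, also called triacylglycerol hydrolase, mobilises stored triglyceride for the assembly of very low density lipoprotein (VLDL). Its 3 probe sets gave different answers. The brightest, 1449081_at, had 2893 on the diosgenin array and 2617 on the control array, a log2 ratio of 0.14. The _a_at probe set had 3189 and 1809, 1.76-fold higher, a log2 ratio of 0.82. The _x_at probe set had 2526 on the diosgenin array and 268 on the control array, 9.41-fold higher, a log2 ratio of 3.23. All 3 were higher on the diosgenin array, by amounts that ranged over 3.09 on the log2 scale.

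The _x_at ratio of Ces1d was the second highest of 16259 single-gene probe sets above the filter, and Ces5a was at place 7. The range within Ces1d was the third widest among the 4079 genes with several probe sets above the filter, where the median range was 0.26 and the 95th percentile was 0.93. Across the array, 3.47% of 1154 _x_at probe sets and 3.42% of 11167 probe sets without a suffix were at least 1.5-fold higher. The share at least 1.5-fold lower was larger for _x_at probe sets than for those without a suffix. Log2 ratios of _x_at probe sets also spread more widely, with a standard deviation of 0.39 against 0.34 without a suffix. Among the 10 carboxylesterase probe sets above the filter, 5 reached 1.5-fold higher, against 3.25% of all single-gene probe sets there. None reached 1.5-fold lower, against 4.00%. The 5 include both the _a_at and the _x_at probe set of Ces1d, so they are not separate genes. They also include the Ces5a probe set that passed the filter by its signal on the diosgenin array. Nothing is read from this count. The transcripts that the individual Ces1d probes bind were not analysed here, and the size of a Ces1d difference depended on which probe set was read.

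**Figure D2:**
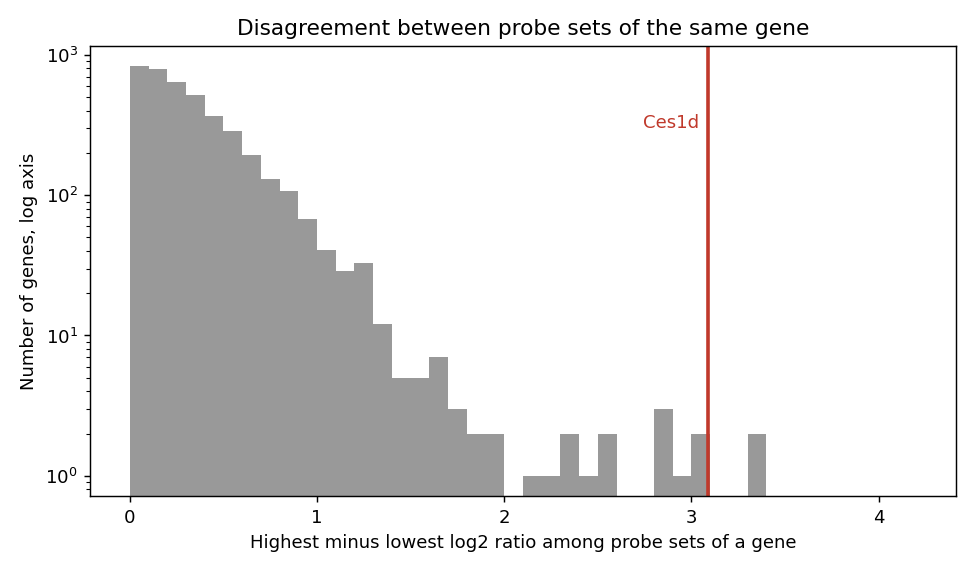
Number of genes (log axis) by the difference between the highest and the lowest log2 ratio among the probe sets of a gene, for the 4079 genes with several probe sets above the filter. Most genes have a range below 1, and Ces1d, marked by the red line, lies at 3.09.

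Ces1e, or egasyn, which retains part of the beta-glucuronidase of the cell in the endoplasmic reticulum, had 1383 on the diosgenin array and 1211 on the control array. Its log2 ratio of 0.19 was smaller than the standard deviation of 0.28 between probe sets of a gene. Ces1f, a relative of triacylglycerol hydrolase, was the only lower member, with 3784 on the diosgenin array and 4275 on the control array. Its log2 ratio of -0.18 was also smaller in size than that, and its _s_at probe set can bind relatives. Ces1g and Ces1f, neighbours in the cluster, thus differed in the size of their ratios, and the sign of the small Ces1f ratio is not settled. The median log2 ratio of the 5 genes was 0.19. With the median of the probe sets above the filter for each gene it was 0.74, with Ces1d at 0.82 and Ces5a at 2.62. With dim probe sets included in that median it was 0.19, with Ces1d at 0.82 and Ces5a at 0.15.

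Other genes of the first cluster were read alongside. Ces1c, the esterase secreted into mouse plasma, had 6533 on the diosgenin array and 6212 on the control array, a log2 ratio of 0.07. Ces1h had dim signals of 32.1 on the diosgenin array and 16.9 on the control array, 1.91-fold higher, a log2 ratio of 0.93. Its mean signal of 24.5 was under the filter. Ces1a and Ces1b are not analysed here.

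The second cluster had higher signals on the diosgenin array for all 3 measured members. Ces2a, an ER hydrolase of the CES2 class, which prefers esters with a small acyl and a large alcohol group, had 3242 on the diosgenin array and 2287 on the control array. It was 1.42-fold higher, with a log2 ratio of 0.50, just under the 1.5-fold mark, and 1.77% of the genes in its brightness group had a ratio as high or higher. Ces2b lay just above the mark at 1.55-fold, with 82.3 on the diosgenin array and 53.1 on the control array. It is dim, and its log2 ratio of 0.63 lay inside the central 95% of the 2433 dimmest genes, which ran from -0.95 to 0.83. Its mean signal of 67.7 was at the upper edge of that group, which ended at 68.0. In the next group the central 95% ended at 0.62, so the place of Ces2b depended on the group edge.

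Ces2e had 759 on the diosgenin array and 706 on the control array, a log2 ratio of 0.10, again below 0.28. The median log2 ratio of Ces2a, Ces2b and Ces2e was 0.50. It was 0.30 with the filter at the 75th percentile, which leaves out Ces2b, and 0.30 when the probe set shared by Ces3a and Ces3b was added. All 3 were read by probe sets without a suffix. Ces2a lay outside the central 95% of its brightness group. Ces2b, at the edge of its group, and Ces2e lay inside theirs.

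Among other genes of the second cluster, Ces2g had 372 on the diosgenin array and 315 on the control array, a log2 ratio of 0.24, and Ces4a had 122 and 99.9, a log2 ratio of 0.29. The probe set shared by Ces3a and Ces3b, which are among the most abundant hydrolases of mouse liver, had 6902 on the diosgenin array and 7161 on the control array. Its log2 ratio was -0.05, and the share of either gene cannot be told apart. Both Ces2f probe sets were under the floor on both arrays, and Ces2h and Ces2d-ps are not analysed here. Including Ces1c, Ces2g and Ces4a, 11 carboxylesterase genes passed the filter, of which 10 were higher and 1 was lower. Of all genes above the filter, 49.0% were higher. The count leaves out the bright probe set shared by Ces3a and Ces3b, which was slightly lower.

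**Figure D3:**
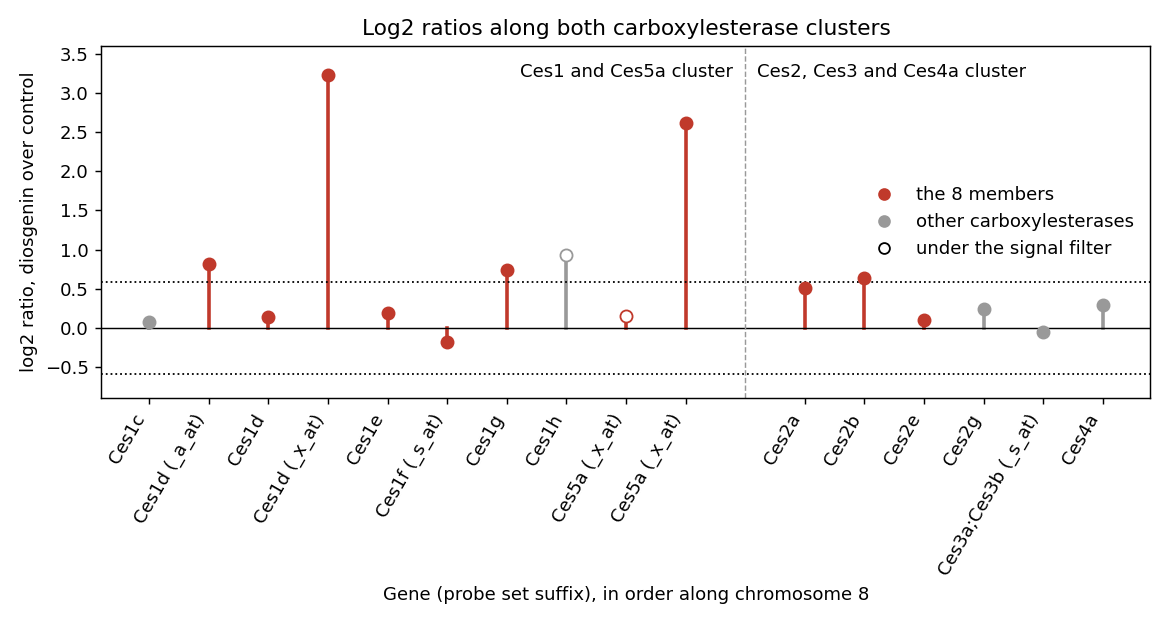
Log2 ratio, diosgenin over control, for each carboxylesterase probe set with a signal above the floor, in gene order along chromosome 8, with dotted lines at 1.5-fold. Members are red, other carboxylesterases grey and probe sets under the filter open. Ces1d (_x_at, 3.23) and Ces5a (_x_at, 2.62) stand far above the others, and no probe set lies below the lower dotted line.

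In the order of ratios, Ces5a came first, followed by Ces1g, Ces2b, Ces2a, Ces1e, Ces1d, Ces2e and Ces1f. Of the 7 gaps between neighbours in this order 4 were smaller than the standard deviation between probe sets of a gene. Ces1g, Ces2b and Ces2a were separated by gaps of 0.11 and 0.13. Ces1e, Ces1d and Ces2e were separated by 0.05 and 0.04. Gaps above the standard deviation lay between Ces5a and Ces1g (1.88), between Ces2a and Ces1e (0.31) and, barely, between Ces2e and Ces1f (0.28). This standard deviation is that of 1 ratio about the mean of its gene, and a gap holds the spread of 2 ratios. The gaps of 0.31 and 0.28 therefore do not set genes apart by this yardstick. Without Ces5a and Ces1d, whose probe sets disagreed, the log2 ratios ran from -0.18 to 0.74.

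**Figure D4:**
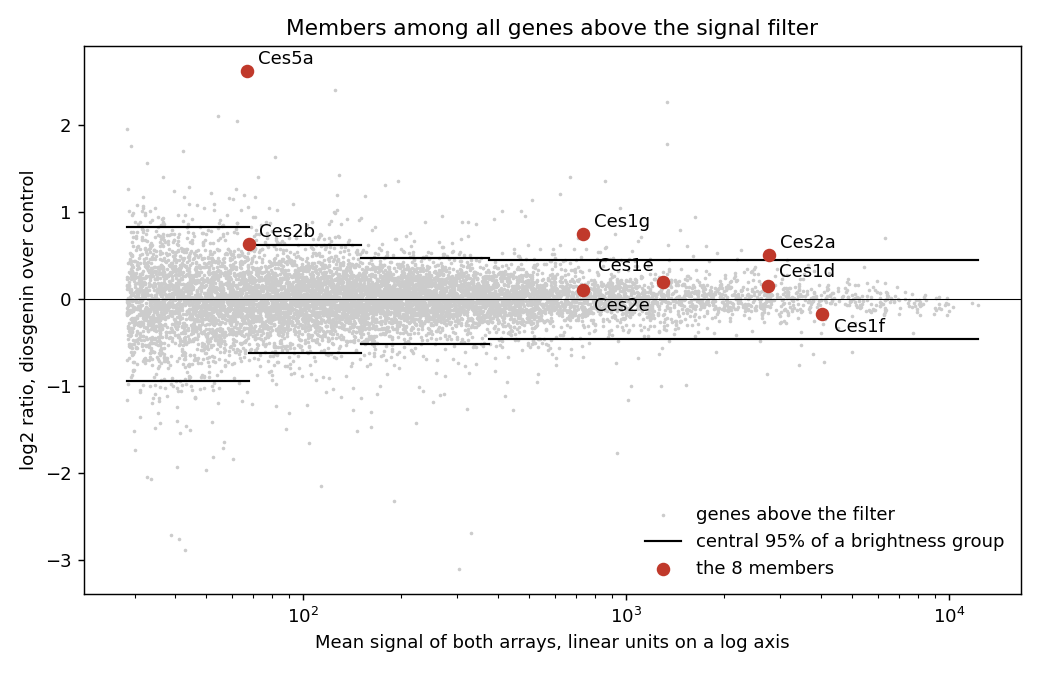
Log2 ratio, diosgenin over control, against the mean signal of both arrays (log axis) for all 9732 genes above the filter, in grey, with the 8 carboxylesterases in red. Black lines bound the central 95% of genes in each of 4 brightness groups. Ces5a, Ces1g and Ces2a lie above the upper bound of their group and the other 5 lie inside. Ces2b lies beside the next group, whose upper bound is 0.62.

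Genes around the clusters were looked at in the same way. Of the 3 nearest protein-coding genes on each side of both clusters, 12 in all, 5 passed the filter. All 5 were slightly higher on the diosgenin array, with log2 ratios of 0.16 to 0.30, where 49.0% of all genes were higher. Nudt21, an mRNA 3′ processing factor beside the Ces5a end, had the highest, with 446 on the diosgenin array and 363 on the control array. It alone exceeded the 0.28 standard deviation between probe sets of a gene. Between the clusters lay 68 coding genes, of which 32 passed the filter with a median log2 ratio of 0.07, 20 of them higher and 12 lower. Of the 32, 1 was at least 1.5-fold higher and 0 lower, beside 2.84% and 3.61% of all genes. The highest log2 ratio among them was 1.07. All 516 other chromosome 8 genes above the filter had a median log2 ratio of -0.0049, with 252 higher and 264 lower.

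Factors known to act on carboxylesterase genes lay on both sides of 0. Among 15 such genes above the filter, 9 had higher and 6 had lower signals on the diosgenin array, where 49.0% of all genes were higher. Their median log2 ratio was 0.03, and 0 were 1.5-fold apart in either direction, which is near the shares of all genes (2.84% higher and 3.61% lower). The bZIP factor Cebpb had 1030 on the diosgenin array and 749 on the control array, a log2 ratio of 0.46. Nr0b2, the repressor SHP induced through the bile acid receptor, had 700 and 900, a log2 ratio of -0.36. The xenobiotic receptor CAR, Nr1i3, had 518 on the diosgenin array and 428 on the control array, a log2 ratio of 0.28. PXR, Nr1i2, and HNF4 alpha, Hnf4a, named after their values were seen because their motifs were searched above, had log2 ratios of -0.18 and 0.04.

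Other esterases and lipases of liver lay on both sides of 0. Among 28 above the filter, 12 had higher and 16 had lower signals on the diosgenin array, where 49.0% of all genes were higher. Their median log2 ratio was -0.02, and 0 were 1.5-fold apart, beside 2.84% of all genes higher and 3.61% lower. The monoacylglycerol hydrolase Abhd6 had 255 on the diosgenin array and 359 on the control array, a log2 ratio of -0.49. Butyrylcholinesterase, Bche, an esterase of plasma, had 412 and 298, a log2 ratio of 0.47. The lysophospholipase Pnpla6 had 99.1 on the diosgenin array and 134 on the control array, a log2 ratio of -0.43.

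Genes for lipid droplets, VLDL assembly and retention of proteins in the endoplasmic reticulum, the setting in which Ces1d acts, were mostly slightly lower. Among 13 above the filter, 2 had higher and 11 had lower signals on the diosgenin array, where 49.0% of all genes were higher. Their median log2 ratio was -0.14, smaller in size than the 0.28 standard deviation between probe sets of a gene. Beside 2.84% of all genes higher and 3.61% lower, the only gene 1.5-fold apart in this list was Tm6sf2, a factor of VLDL lipidation. It had 149 on the diosgenin array and 91.3 on the control array, a log2 ratio of 0.70. The droplet protein Plin5, read by an _s_at probe set, had 344 and 480, a log2 ratio of -0.48. The ER chaperone Hsp90b1 had 4007 on the diosgenin array and 5051 on the control array, a log2 ratio of -0.33.

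**Figure D5:**
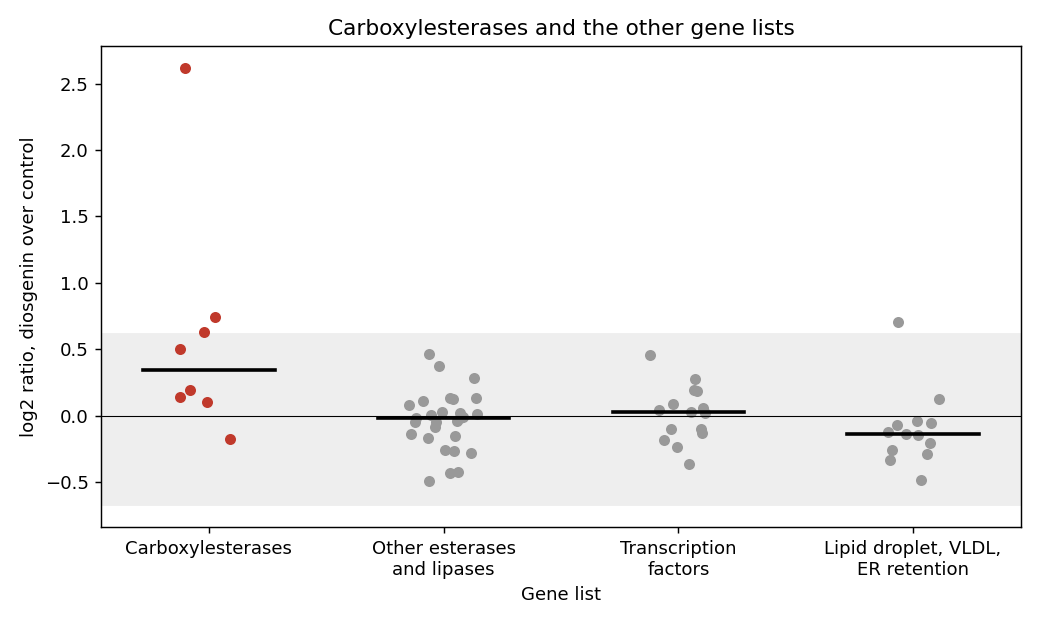
Log2 ratio, diosgenin over control, for each gene above the filter in 4 lists, with medians as black bars and the central 95% of all genes above the filter, from -0.67 to 0.62, as a grey band. The carboxylesterase median is 0.35, and the other medians are -0.02, 0.03 and -0.14; horizontal spread within a list has no meaning.

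Markers showed the tissue to be liver on both arrays. All 5 hepatocyte markers were bright, with a summed signal of 42459 on the diosgenin array and 44802 on the control array. Summed signals of the 6 Kupffer and myeloid markers were 2296 and 2103, those of the 5 stellate markers 2059 and 1633, and those of the 5 endothelial markers 978 on the diosgenin array and 1360 on the control array. Of 5 markers of kidney, 0 passed the filter, with sums of 62.7 on the diosgenin array and 56.0 on the control array. Slc22a6, of the proximal tubule, and Umod, of the thick ascending limb, were under the floor on both arrays. The other kidney markers lay between the floor and the filter. Kap had 21.6 on the diosgenin array and 13.4 on the control array, and Lrp2 had 15.6 and 12.4. Slc34a1 was lower on the diosgenin array, with 15.6 and 17.6. Of 3 adipocyte markers measured 1 passed, with Adipoq under the floor on both, and their sums were 152 and 173. Only 1 of 4 biliary, 2 of 5 pancreatic acinar and 2 of 4 enterocyte markers passed, with sums of 58.1, 1233 and 1929 on the diosgenin array and 106, 1299 and 2305 on the control array. Some of these sums are weighted to bright genes. Dcn gave 1217 and 940 of the stellate sums, and Col1a1 was the only stellate marker lower on the diosgenin array, with 17.2 and 31.3. Clec4g gave 464 and 745 of the endothelial sums, in which all 5 markers were lower. Cela1 gave 1150 and 1212 of the acinar sums. The part of the marker differences in the carboxylesterase ratios was not tested.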

How the data were processed

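Total liver RNA, pooled from 3 mice per diet, was labelled with biotin from 5 µg aliquots, per the labels' protocols. The deposited values are array intensities on a linear scale for 45101 probe sets. The submitters' processing notes name GCOS, the Affymetrix software, whose version and summary method were not given in the sources used here. Equal trimmed means on both arrays show a common scaling by the authors.

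From these values, log2 ratios were computed with Python 3.11.15 and pandas 2.3.3. The floor was the 40th percentile of all signals and the filter the 60th percentile of mean signals. Probe sets with 1 symbol in the platform annotation were used, 34958 in all. The code was tested on simulated arrays.

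The members, the lists and the settings were chosen with earlier results of these data known. All members and all other carboxylesterases were named, and of each further list the 3 genes with the largest absolute ratio and any gene at least 1.5-fold apart. The other floors, filters, probe set summaries and scalings tried are reported in the closing section.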

Additional observations from a re-analysis of the deposited data

How the results depend on the processing

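Alternatives set out with the design were floors at the 20th and 60th percentile, no filter or one at the 75th, the median of the probe sets above the filter, probe sets without a suffix, median centring, quantile normalization and a lowess curve. Added after seeing the data were leaving out Ces5a, reading Ces3a by its shared probe set, the median of all probe sets with dim ones included, and the _a_at and _x_at probe sets of Ces1d. The count of carboxylesterases at least 1.5-fold higher, 3 as reported, was 1 with the filter at the 75th percentile (1.54% of all genes there). It was 4 with the median of probe sets above the filter (2.77%) and 2 without suffixed probe sets (3.14%). Without Ces5a it was 2, beside the 2.84% of all genes as reported. With dim probe sets included in the median it stayed 3 (2.28%), with Ces1d in place of Ces5a. Ces5a was at 2.01 with the higher floor and at 0.15 with dim probe sets included. Ces1d was at 0.82 by either median and by its _a_at probe set, and at 3.23 by its _x_at probe set. The Ces1 and Ces5a median was 0.74 with the median of probe sets above the filter. The median of all carboxylesterases ranged from 0.17 to 0.57, and that of the Ces2 genes from 0.30 to 0.51. Suffixed probe sets alone read Ces1f and the Ces5a value above the filter. No carboxylesterase changed sign under the settings that gave it a value. Without replicate arrays none could be left out. No paired analysis was possible because each diet has 1 array.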
